A study of Arabidopsis thaliana with 3 samples.

Results

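The genes described here encode 3 families of enzymes that act on wall polysaccharides in Arabidopsis thaliana: TRICHOME BIREFRINGENCE-LIKE (TBL) proteins, glycosyl hydrolase 9 (GH9) endoglucanases and xyloglucan endotransglucosylase/hydrolases (XTH). They were chosen by symbol, without TBL32 and TBL33, and 37 of the 9253 genes with a value belonged to them. The measured members were 15 TBL, 14 GH9 and 8 XTH genes, each read by 1 spot. The RefSeq gene table holds 41, 21 and 30 genes with such symbols. The 41 TBL genes include TBL32 and TBL33, which were measured but are not among the 15. Transcripts were compared between nst1-1 nst3-1 plants, double mutants with T-DNA tags in the genes NST1 and NST3, and wild-type plants. NST1 and NST3 encode NAC transcription factors that switch on secondary wall formation in fibres, and the labels describe the mutant as unable to make secondary xylem in the stem and hypocotyl. Total RNA came from the lowest 4 cm of inflorescence stems 12 to 17 cm tall, from untreated plants in a day of 8 h light and 16 h dark. There were 3 mutant samples, numbered in the labels and called lines 1, 2 and 3 here, and each shared a two-colour array with wild-type RNA. The series text calls the lines independent while all carry the same allele names, and it is not stated whether the wild-type RNA was 1 extract or several. The p-values therefore measure the spread between these 3 arrays.

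Plant walls are built of cellulose microfibrils in a matrix of xyloglucan, xylan, mannan and pectin, in proportions that differ between growing primary walls and the thick secondary walls of xylem and fibres. TBL proteins work mainly in the Golgi, and several of them add acetyl groups to one matrix polymer each, such as xylan, mannan, xyloglucan or pectin. GH9 enzymes cut beta-glucan chains: those of class A are typically anchored in membranes, those of class B are secreted, and those of class C are secreted and carry an added carbohydrate-binding module. XTH enzymes cut xyloglucan and either rejoin it to another chain or release it, and they are known best from expanding and differentiating cells.

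All values are log2 ratios of nst1-1 nst3-1 over wild type, so negative values are lower in the mutant. The direction follows from the dye labels if the deposited ratios are Cy5 over Cy3, a reading that was not tested, and the size holds if they are log10. If the ratios ran as Cy3 over Cy5, every direction below would turn. A ratio gives no level, so it is not known which members were near background, and in a stem sample fewer cells of a type cannot be told apart from less RNA per cell. NST1 and NST3 themselves had no listed spot and could not serve as a check of the labels. Of 15 listed xylem and secondary-wall genes 3 were measured, and all 3 were lower on every array. Across genes, lines 2 and 3 were more alike (Pearson r = 0.784) than lines 1 and 2 (0.488) or lines 1 and 3 (0.477). Genes are not independent replicates.

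Of the 37 members, 1 passed the test over all genes. This was GH9B5, which fell in the mutant, and no TBL or XTH gene passed. The test, limma, asked for each gene whether its 3 log2 ratios differ from 0 (two-sided), with a Benjamini-Hochberg adjusted p under 0.05 over 9253 genes. Over all genes 3.39% passed, 2.6% lower and 0.789% higher, so 1 of 37 is about the share seen in general. By limma, 5 of the 37 members had an unadjusted p under 0.05, against 2386 of the 9253 genes. Beside GH9B5 these were TBL25, TBL26, TBL34 and XTH32, all with negative means. The mean ratio was below 0 for 22 of the 37, against 47.7% of all genes. It lay within 0.25 of 0 for 26 of them, against 62.8% of all genes.

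**Figure D1:**
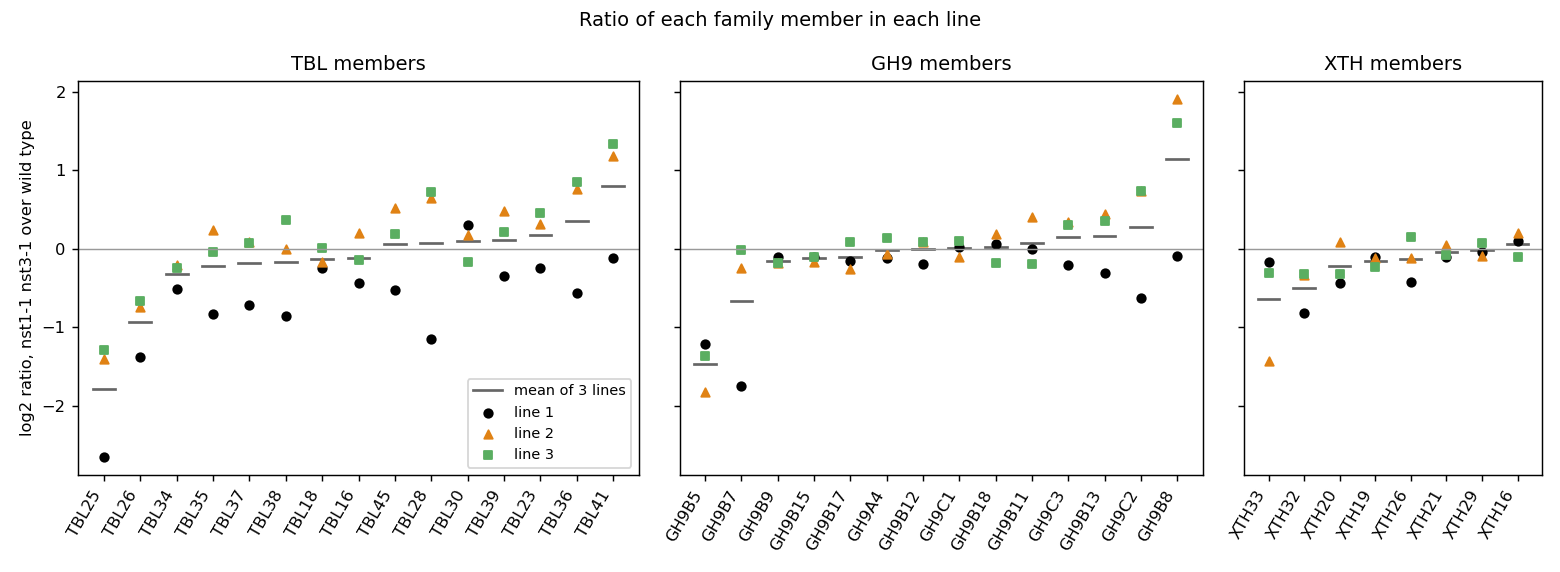
The log2 ratio of nst1-1 nst3-1 over wild type (y axis) is drawn for each of the 37 members (x axis, by family and rising mean), with a point per line and a bar for the mean of 3 lines. GH9B5, TBL25 and TBL26 lie below 0 in every line, and in 14 of 15 TBL genes line 1 is the lowest point.

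Among the 15 TBL genes counted, the means furthest from 0 belonged to a pair from the group whose products acetylate mannan, TBL25 and TBL26. In lines 2 and 3 alone, TBL36 and TBL41 lay further from 0 than TBL26, on the positive side. TBL25 (AT1G01430) measured -2.66, -1.41 and -1.29 in lines 1, 2 and 3. Every line was more than 2-fold lower than wild type, and line 1 stood furthest from 0. Its mean was -1.78 ± 0.76 (SD, n = 3 lines), or 3.45-fold lower, with a limma adjusted p of 0.0665 and a 95% interval of -2.66 to -0.91. Counted from the lowest mean ratio it stood at 66 of 9253 genes, a place that would count from the highest if the direction were turned.

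TBL26 (AT4G01080) measured -1.38, -0.74 and -0.67 in lines 1, 2 and 3. The order of the lines was the same as for TBL25, with lines 2 and 3 close together and line 1 lower. The mean was -0.93 ± 0.39, or 1.91-fold lower (limma adjusted p = 0.0710). Neither gene passed with all arrays as deposited, and both passed when the arrays were scaled to equal spread (limma adjusted p = 0.0422 for TBL25 and 0.0468 for TBL26), where 5.66% of all genes passed. With a dye term, without line 2 and without line 3, where no gene passed, the limma adjusted p was 0.228, 0.289 and 0.179 for TBL25 and 0.234, 0.296 and 0.224 for TBL26. TBL23 (AT4G11090), from the same mannan group, did not share this pattern. Its values were -0.25, 0.32 and 0.45, below 0 in line 1 and above 0 in the others.

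The measured genes of the group whose products acetylate xylan, TBL28, TBL30, TBL34 and TBL35, had small means, between -0.32 and 0.10. TBL34 (AT2G38320) measured -0.51, -0.21 and -0.25, below 0 in every line. Its mean was -0.32 ± 0.16, or 1.25-fold lower, with a limma adjusted p of 0.153. TBL35 (AT5G01620) measured -0.83, 0.24 and -0.05, so that its mean of -0.21 rests on line 1.

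TBL28 (AT2G40150) gave the most divided values of the TBL genes, at -1.15, 0.64 and 0.72 in lines 1, 2 and 3. It was more than 2-fold lower than wild type in line 1 and higher in both other lines, and the mean of 0.07 ± 1.06 describes neither. TBL30 (AT2G40160) is the next gene to TBL28 in the gene table, with none between them. It measured 0.31, 0.18 and -0.17, the only TBL gene with its highest value in line 1. TBL32 and TBL33, also of the xylan group but not counted here, were both lower in every line, with means of -1.94 and -3.19.

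The other 8 TBL genes, TBL16, TBL18, TBL36, TBL37, TBL38, TBL39, TBL41 and TBL45, had means between -0.19 and 0.80, and none had 1 sign in all lines. TBL41 (AT3G14850) measured -0.11, 1.18 and 1.34. It was more than 2-fold higher than wild type in lines 2 and 3 and near it in line 1, with a mean of 0.80 ± 0.80 (limma adjusted p = 0.233). TBL36 (AT3G54260) measured -0.57, 0.76 and 0.85, with a mean of 0.35 ± 0.79. For TBL45 (AT2G30010), a close relative of the powdery mildew resistance gene PMR5, the values were -0.52, 0.52 and 0.19. In both genes line 1 lay on the other side of 0 from the remaining lines.

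TBL38 (AT1G29050) measured -0.86, 0.0012 and 0.36, and TBL39 (AT2G42570) measured -0.35, 0.48 and 0.21. TBL37 (AT2G34070) was at -0.71, 0.08 and 0.07, and TBL16 (AT5G20680) at -0.43, 0.20 and -0.14. The smallest spread of the TBL genes was that of TBL18 (AT4G25360), with -0.25, -0.17 and 0.01. In all of these the mean was within 0.25 of 0 while line 1 was negative.

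Over the 15 TBL genes the median of the means was -0.12, against 0.013 over all genes. Only 3 TBL genes, TBL25, TBL26 and TBL34, had 1 sign in all lines, all negative, while 50.2% of all genes had 1 sign on all 3 arrays. The family varied more between lines than genes in general, with a median SD of 0.457 against 0.184.

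Of the 14 GH9 genes 1 was called lower and none was called higher, against 2.6% and 0.789% of all genes. GH9B5 (AT1G19940), a class B gene, measured -1.21, -1.83 and -1.36 in lines 1, 2 and 3. Every line was more than 2-fold lower than wild type, with line 2 the lowest and line 1 nearest to 0. The mean was -1.47 ± 0.32 (SD, n = 3 lines), or 2.76-fold lower, with a 95% interval of -1.88 to -1.05 and a limma adjusted p of 0.0386. Counted from the lowest mean ratio it stood at 107 of 9253, or from the highest with the direction turned. The call was lost with fewer arrays or a further term: the mean was -1.29 without line 2 (limma adjusted p = 0.236) and -1.52 without line 3 (0.152), where no gene of the whole table passed, and -1.56 with a dye term in the fit (0.133), which left none either. Without line 1 it passed at -1.59 (0.0292).

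Some class B genes varied widely between lines, GH9B8 most of all 37 members. GH9B8 (AT2G32990) measured -0.09, 1.91 and 1.61 in lines 1, 2 and 3. It was over 2-fold higher than wild type in lines 2 and 3 and close to it in line 1. Its mean of 1.14 ± 1.08 was the highest of all 37 members and did not pass (limma adjusted p = 0.213). GH9B7 (AT1G75680) measured -1.75, -0.25 and -0.02, so that its mean of -0.67 ± 0.94 came mainly from line 1 (limma adjusted p = 0.361). A mean change of at least 2-fold was found for 3 of the 37 members, TBL25, GH9B5 and GH9B8, against 3.48% of all genes.

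The means of the other class B genes lay within 0.25 of 0. GH9B13 (AT4G02290) measured -0.31, 0.44 and 0.35, with line 1 again apart from lines 2 and 3. GH9B9, GH9B11 and GH9B12 lie in a run of consecutive GH9 genes, with GH9B10, which was not measured, between the first and the next. Their means were -0.15, 0.07 and -0.01, and the value of GH9B11 in line 1 was deposited as exactly 0. GH9B17 and GH9B18, also next to each other, had means of -0.11 and 0.02. Whether the spots of such neighbouring relatives bind each other's transcripts was not tested. GH9B15 (AT4G23560) had the smallest spread of any member, at -0.10, -0.16 and -0.10, and GH9B9 came next with -0.10, -0.18 and -0.18.

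The class A gene measured was GH9A4 (AT3G43860), with -0.12, -0.06 and 0.13. GH9A1, also called KORRIGAN, the membrane-bound endoglucanase needed for cellulose synthesis, was not among the measured genes. In class C, GH9C2 (AT1G64390) measured -0.63, 0.74 and 0.73, and GH9C3 (AT4G11050) -0.20, 0.34 and 0.31. In both, lines 2 and 3 were nearly equal and above wild type while line 1 was below it. GH9C1 (AT1G48930), a gene known from root hairs, was at 0.02, -0.11 and 0.10. Over the 14 GH9 genes the median of the means was -0.0023 and the median SD 0.248. Only 4 of the 14 had 1 sign in all lines, against 50.2% of all genes. These were GH9B5, GH9B7, GH9B9 and GH9B15, all negative.

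None of the 8 XTH genes passed. Of their means 7 were negative, against 47.7% of all genes, and 6 lay within 0.25 of 0, against 62.8%. Only 3 of the 8 had 1 sign in all lines, all negative, against 50.2% of all genes. XTH32 (AT2G36870), of the subgroup whose enzymes mainly hydrolyse xyloglucan, measured -0.82, -0.34 and -0.32 in lines 1, 2 and 3. It was lower than wild type in every line, with lines 2 and 3 alike. The mean was -0.49 ± 0.29, or 1.41-fold lower (limma adjusted p = 0.129, 95% interval -0.87 to -0.12).

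XTH33 (AT1G10550), whose product is held at the plasma membrane, measured -0.17, -1.43 and -0.32. Line 2, the array of the opposite dye orientation, was far below the others and set most of the mean of -0.64 ± 0.69 (limma adjusted p = 0.262). XTH19 (AT4G30290) was below 0 in every line too, at -0.11, -0.12 and -0.24. XTH20 (AT5G48070), which with XTH19 is known from the pith of wounded stems, measured -0.43, 0.09 and -0.32.

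XTH26 (AT4G28850), known from root hairs, measured -0.43, -0.12 and 0.15. For XTH21 (AT2G18800), XTH29 (AT4G18990) and XTH16 (AT3G23730) the means were -0.04, -0.02 and 0.07, with intervals of -0.27 to 0.18, -0.24 to 0.20 and -0.20 to 0.34. Over the 8 XTH genes the median of the means was -0.14 and the median SD 0.215. XTH27, which the gene table gives as EXGT-A3 (AT2G01850) and which is known from tracheary elements of leaf veins, was not counted by symbol. Its values were -0.15, -0.64 and -0.87, lower than wild type in every line, with a mean of -0.55 ± 0.37 (limma adjusted p = 0.148). Without line 1 its mean was -0.76 (limma adjusted p = 0.0392).

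Genes from lists of the same wall processes were set beside the families. Of 5 listed genes of wall acetylation outside the TBL family 1 was measured, AT3G03210, and it fell. It measured -1.49, -1.42 and -1.37, nearly equal in all lines, with a mean of -1.43 ± 0.06 or 2.69-fold lower (limma adjusted p = 0.0126). Of 13 genes listed under primary-wall cellulose 3 were measured, of which 1 fell and 2 were not called. AT3G57420 fell, with values of -1.84, -1.24 and -1.12 and a mean of -1.40 ± 0.39 (limma adjusted p = 0.0459). AT2G41770 measured -1.49, -1.09 and -0.68 (limma adjusted p = 0.0620). These 2 genes were lowest in line 1, as TBL25 and TBL26 were. Whether AT3G57420 and AT2G41770 act in primary walls alone was not tested. COB, needed for oriented cellulose deposition in growing cells, measured -0.28, 0.47 and 0.59.

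Of 16 listed genes of xyloglucan synthesis and trimming, the substrate of the XTH enzymes, 5 were measured and none was called. All 5 encode glucan synthases of the CSLC family, which make the xyloglucan backbone. CSLC4 measured -0.54, -0.34 and -0.61, below 0 in every line, with a mean of -0.50 ± 0.14 (limma adjusted p = 0.0710). CSLC5 measured -1.60, 0.29 and 0.43. CSLC8 measured -0.89, 0.23 and 0.36, and CSLC6 -0.61, 0.14 and 0.05. Like 8 of the 15 TBL genes, these last 3 were below 0 in line 1 and above 0 in lines 2 and 3. CSLC12 had a mean of -0.07 ± 0.15.

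**Figure D2:**
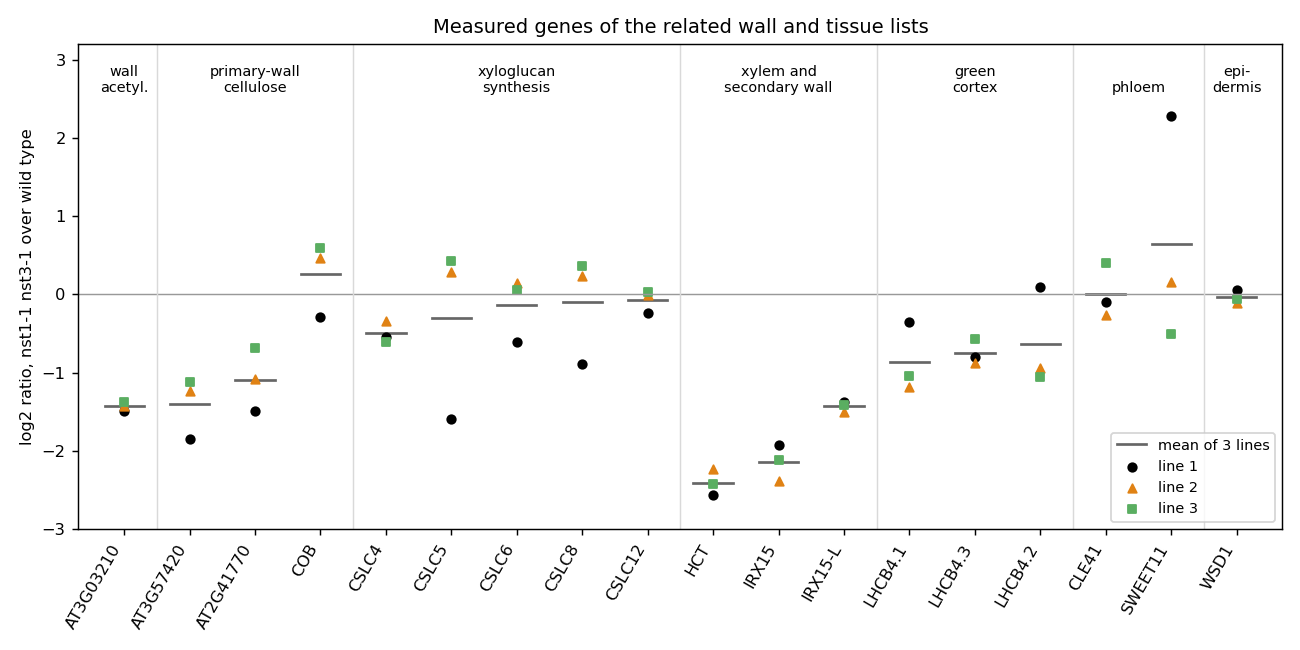
The log2 ratio of nst1-1 nst3-1 over wild type (y axis) is drawn for the 18 measured genes of the related lists (x axis), with a point per line and a bar for the mean. AT3G03210, HCT, IRX15 and IRX15-L have their 3 points close together below 0, while CSLC5, CSLC6 and CSLC8 have line 1 below 0 and lines 2 and 3 above it.

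The xylem and secondary-wall genes measured were IRX15 and IRX15-L, needed for normal xylan, and HCT of lignin monomer synthesis. All 3 fell, with means of -2.14 ± 0.23, -1.43 ± 0.07 and -2.40 ± 0.17 (limma adjusted p = 0.0126, 0.0126 and 0.00917). Without line 2, without line 3 or with a dye term, where no gene passed, these 3 genes, AT3G03210 and AT3G57420 were not called either.

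Line 1 was often the lowest line among the TBL genes, a pattern noticed after the values had been seen and given here without a test. Line 1 was the lowest of the 3 lines for 14 of 15 TBL genes, 7 of 14 GH9 genes and 4 of 8 XTH genes, against 36.3% of all genes. If the direction of the ratios were turned, line 1 would be the highest for the same genes. The TBL exception was TBL30. The count of TBL genes was again 14 with the arrays centred on their medians and with the arrays scaled to equal spread. Line 1 minus the mean of lines 2 and 3 had a median of -0.79 over the TBL genes, -0.13 over the GH9 genes and -0.06 over the XTH genes, against 0.031 over all genes.

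Line by line, the median ratio of the TBL genes was -0.52, 0.20 and 0.07 in lines 1, 2 and 3, and 14, 4 and 6 of the 15 were below 0. For all genes the medians were 0.0098, 0.010 and 0.014. Line 1 was below 0 with lines 2 and 3 above 0 for 8 TBL genes, TBL23, TBL28, TBL36, TBL37, TBL38, TBL39, TBL41 and TBL45, and for 5 GH9 genes, GH9B8, GH9B12, GH9B13, GH9C2 and GH9C3. It was so for no XTH gene and for 12.8% of all genes. The reverse pattern, line 1 above 0 with the others below, was found for none of the 37 members and for 1024 of all genes.

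**Figure D3:**
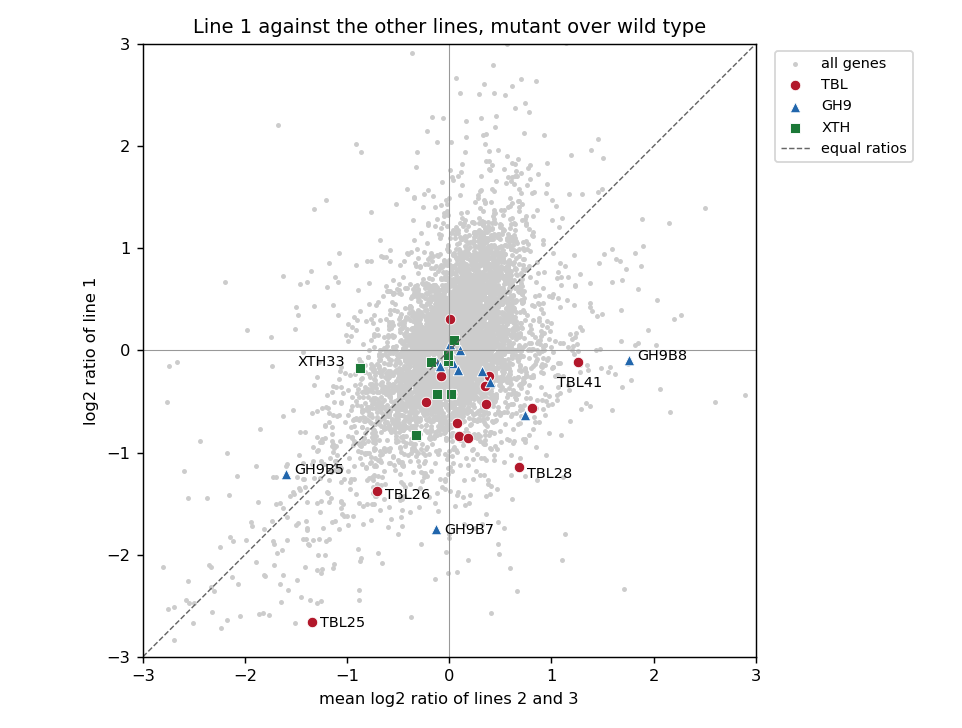
The log2 ratio of line 1 (y axis) is plotted against the mean log2 ratio of lines 2 and 3 (x axis), both nst1-1 nst3-1 over wild type, for all genes (grey) and the 3 families, with a dashed line for equal ratios. Axes end at 3 in both directions, which leaves out 33 genes. The TBL points lie below the dashed line except for TBL30, and GH9B8 and TBL41 lie far to the right near 0 on the y axis.

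Lines 1 and 3 carried the mutant RNA in Cy5 and line 2 in Cy3, and the part of the dye in these values was not tested. Some markers of other stem tissues also differed between the lines, while LHCB4.3 and WSD1 had SDs below the median of 0.184 over all genes. The phloem sugar transporter gene SWEET11 measured 2.28, 0.16 and -0.50 in lines 1, 2 and 3, while CLE41, a peptide gene of the phloem, measured -0.10, -0.26 and 0.40. Of 6 listed phloem genes these 2 were measured, and neither was called. Of 6 listed genes of green cortex 3 were measured, of which LHCB4.3 fell (-0.75 ± 0.16, limma adjusted p = 0.0483), a call lost under a robust prior (limma adjusted p = 0.0502). LHCB4.1 measured -0.36, -1.18 and -1.05 and LHCB4.2 0.10, -0.94 and -1.05, both nearest to wild type in line 1. The epidermal wax synthase gene WSD1, the 1 measured of 5, had a mean of -0.03 ± 0.08, and none of 3 listed cambium genes was measured. The part of tissue makeup in the TBL values was not tested.

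Without line 1, limma called 8 of the 37 members, and 12.5% of all genes. GH9B5, TBL25 and TBL26 were lower, with means of -1.59, -1.35 and -0.71. TBL28, TBL36, TBL41, GH9C2 and GH9B8 were higher, with means of 0.68, 0.81, 1.26, 0.74 and 1.76. The limma adjusted p-values of the 8 ran from 0.0202 for TBL25 to 0.0346 for TBL28. This fit keeps the 2 arrays that are most alike. The 5 genes that were higher there had negative values in line 1, close to 0 for GH9B8 (-0.09) and TBL41 (-0.11). None of these 5 was called with all 3 lines. Without line 2 or without line 3 no gene of the whole table was called.

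**Figure D4:**
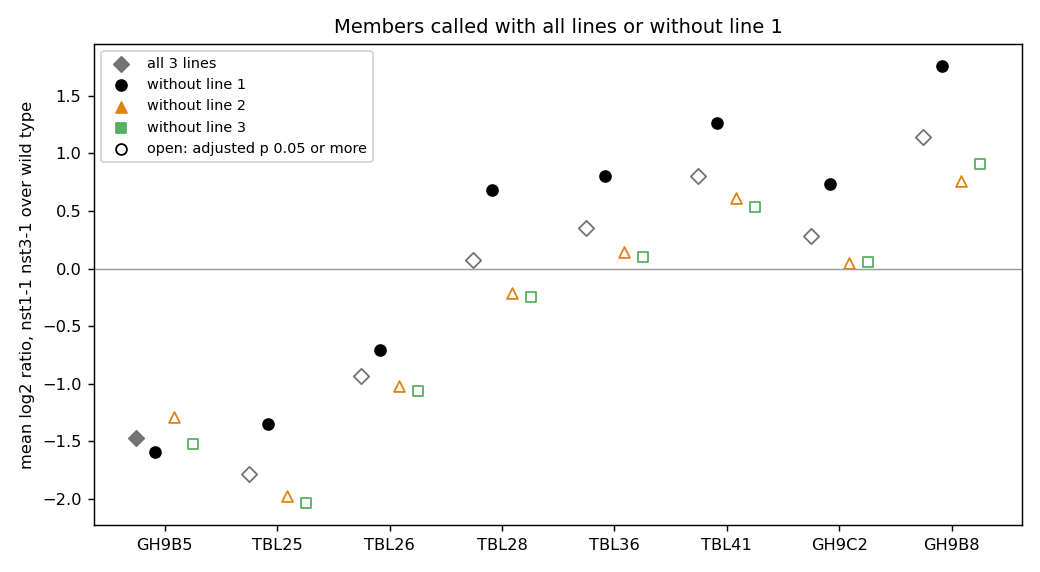
The mean log2 ratio of nst1-1 nst3-1 over wild type (y axis) is drawn for the 8 members called with all lines or without line 1 (x axis), with all 3 lines and with each line left out. Filled points had a limma adjusted p under 0.05 and open points did not. GH9B5 is the one member filled with all lines, and all 8 are filled without line 1.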

How the data were processed

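The authors deposited 1 log ratio per spot and array for 22236 spots, taken here as log10 ratios of Cy5 over Cy3. The values stop at exactly -2, from which the base was inferred, and a median of 0 on each array shows centring or dye normalization, by a method not given in the sources used here. Scanner, background correction and spot intensities were not given either, so dim or saturated spots were not identified. Line 2 was turned by its dye label (deposited r = -0.488 and -0.784 with lines 1 and 3), and ratios were converted to log2.

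Of the spots, 9335 had 1 listed gene in the platform annotation, 40 several and 12861 none. Current symbols came from the TAIR10.1 gene table by Entrez identifier (9317 matched, 18 did not and went by locus code or symbol). Spots of 1 gene were averaged (79 genes with several). No coordinates are printed.

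limma 3.58.1 in R 4.3.3 (lmFit, eBayes) was fitted to all 9253 genes with each line as 1 replicate, after a check on simulated data. The spread of wild type is not estimated separately, and 3 arrays limit the precision. The members, the 10 lists (78 genes, 18 measured) and the polymer groups of TBL genes were chosen with earlier results of these data known. All members are named. Of the lists, called genes and up to 4 others each are named, and CSLC12 was named after its values had been seen. Alternatives covered scaling, centring, a dye term, a robust prior, exact zeros, single spots, the log base, the threshold, the 10% of genes of widest spread, synonyms and each line left out.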

Additional observations from a re-analysis of the deposited data

How the results depend on the processing

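Genes called higher and lower over the whole table numbered 73 and 241. Scaling the arrays gave 177 higher and 347 lower, 524 of 9253 in all, leaving out values of exactly 0 gave 140 higher, dropping the genes of widest spread gave 530 and 602, and a threshold of 0.1 gave 530 and 648. A dye term, with 1 residual degree of freedom left, gave 0 of either (1592 genes at an unadjusted p under 0.05 by limma). Leaving out 1 line gave 0 to 574 higher and 0 to 583 lower, with 0 calls without line 2 or line 3 (1373 and 1430 at an unadjusted p under 0.05). Called TBL genes numbered 2 with scaled arrays or a threshold of 0.1 (TBL25 and TBL26), 1 with the genes of widest spread dropped (TBL26) and 0 to 5 without 1 line. Dropping the genes of widest spread removed members too, which were not tested there. These were TBL25, TBL28, TBL35, TBL36, TBL38, TBL41, TBL45, GH9B7, GH9B8, GH9C2 and XTH33. Called GH9 genes numbered 0 with the dye term and 0 to 3 without 1 line. None of the 8 XTH genes counted by symbol was called under any of these alternatives in which it was fitted. Read as log2, the deposited ratio of GH9B5 would average -0.44 with the same call. The causes of these differences were not tested, apart from the fewer arrays or genes that a setting leaves by construction. No paired analysis was possible because each array already sets 1 line against wild type and there is 1 group of ratios.

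Of the comparisons of a member's mean with its mean under an alternative, 396 kept direction and side of the threshold. A call was gained in 12 and lost in 3 (all GH9B5), and 22 turned direction, all in members not called with all lines. Many outcomes were fixed in advance, so these counts do not measure stability. The log2 reading could change none. Single spots, the robust prior, the threshold and dropping genes of widest spread could turn no direction. Leaving out zeros altered the mean of GH9B11 alone. GH9B12 turned to 0.0020 with scaled arrays and 0.014 with the dye term, and GH9C1 to -0.0075 with centred arrays and -0.024 with the dye term. With 1 line left out, the means of TBL genes that turned ranged from -0.44 to 0.095 for TBL35, -0.32 to 0.077 for TBL37, -0.43 to 0.18 for TBL38, -0.29 to 0.031 for TBL16, -0.17 to 0.36 for TBL45, -0.25 to 0.68 for TBL28 and -0.070 to 0.35 for TBL39. Those of GH9 genes ranged from -0.093 to 0.035 for GH9A4, -0.054 to 0.082 for GH9B12, -0.045 to 0.059 for GH9C1, -0.059 to 0.13 for GH9B18 and -0.096 to 0.20 for GH9B11. The XTH means ranged from -0.27 to 0.015 for XTH26, -0.065 to 0.012 for XTH29 and -0.0018 to 0.15 for XTH16. Among the other named genes, CLE41 turned to -0.00097 with centred arrays and -0.058 with the dye term, and means without 1 line ranged from -0.66 to 0.36 for CSLC5, -0.28 to 0.098 for CSLC6, -0.33 to 0.30 for CSLC8, -0.12 to 0.013 for CSLC12, -0.17 to 1.22 for SWEET11, -0.18 to 0.15 for CLE41 and -0.081 to 0.00033 for WSD1.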
